A study of Mus musculus with 12 samples.

Results

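The 4 genes described here are Atp12a, which encodes a proton pump, and the connexin genes Gjb2, Gjb6 and Gja1. They are 4 of the 22180 genes that had a row of their own in the deposited table, and each was measured by 1 row. The 4 were named in a list, for which Atp12a was chosen by its log2 difference between IL-6KO and WT skin, so every comparison of Atp12a between the WT or IL-6KO group and another group is given as a description without a test, as is every member in IL-6KO minus WT.

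Atp12a is the catalytic subunit of the non-gastric proton and potassium pump, which moves protons out of the cell in exchange for potassium and needs a beta subunit to reach the membrane. It is known from colon, kidney, airway and skin epithelium. Connexins form the channels of gap junctions, through which neighbouring cells exchange ions and small molecules. Gjb2 and Gjb6 encode beta connexins that can share a channel, and inherited changes in either human gene cause deafness and thickened skin. Gja1 encodes the most widespread connexin, which in skin is found in epidermis, hair follicles and dermal cells. Gjb2 is known to be low in resting interfollicular epidermis and high in psoriatic and healing epidermis.

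The study profiled RNA of mouse dorsal skin on 12 expression arrays, in 6 groups of 2 arrays. Each array held RNA pooled from male and female mice of strain C57Bl/6, 58 mice in all, and each group had 1 pool at 10 weeks and 1 at 14 weeks of age. Pools held 5 mice, except WT and IL-6KO at 10 weeks, which held 4. The series title names psoriasis-like inflammation that persists in mice overexpressing IL-17C without IL-6 as the question. The WT group is C57Bl/6 skin, and the IL-6KO group is skin of mice labelled as knocked out for the cytokine IL-6. The IL-17C+ mice overexpress the epithelial cytokine IL-17C, and the IL-17C+KO mice carry that overexpression on the IL-6 knock-out. Both genotypes gave a group of involved skin, meaning affected areas, and a group of uninvolved skin. The sources used here do not give the promoter or cell type that drives IL-17C, nor whether involved and uninvolved pools shared mice. Because the 2 arrays of a group differ in age, the SD of a group (n = 2) holds the age difference as well as the spread between pools.

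Several arrays read against their labels. Il17c was at a log2 level of 6.24 ± 0.09 (SD, n = 2) in IL-6KO skin, whose labels give no transgene and yet call it involved, against 6.22 ± 0.58 in IL-17C+ involved skin, 4.45 ± 0.42 in IL-17C+ uninvolved skin and 4.82 ± 0.20 in WT skin. The sources used here do not say whether that row reads the transgene. Il6 was lowest in IL-6KO skin (2.74 ± 0.08) and highest in IL-17C+KO uninvolved skin (4.97 ± 0.05), and it lay below the array median on 8 of 12 arrays. The 7 stressed keratinocyte markers averaged 10.41 in involved and 6.15 in uninvolved IL-17C+ skin, but 7.51 in the skin labelled IL-17C+KO involved and 10.12 in that labelled IL-17C+KO uninvolved. The 6 neutrophil markers, which share S100a8 and S100a9 with that list, averaged 8.47, 4.09, 5.25 and 8.50 in these groups in turn. Group names below are those of the labels, and results that rest on the IL-17C+KO or IL-6KO arrays stand under these readings. The tissue label was met by the data: all measured basal keratinocyte markers (5) and suprabasal markers (6) lay above the array median on every array. Fewer cells of a type and less RNA per cell cannot be told apart in such bulk skin.

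The 250 bases before the RefSeq gene start (assembly GRCm38.p6) are printed for the connexins so that the differences between their promoter regions can be seen beside their levels. A window was found for 3 of the 4 genes. Capitals mark matches, on either strand, to the GC box GGGCGG, the AP-1 motif TGANTCA, the STAT motif TTCNNNGAA, the TATA box TATAAA and the NF-kB consensus.
Gjb2, chr14:57104703-57104952, minus strand: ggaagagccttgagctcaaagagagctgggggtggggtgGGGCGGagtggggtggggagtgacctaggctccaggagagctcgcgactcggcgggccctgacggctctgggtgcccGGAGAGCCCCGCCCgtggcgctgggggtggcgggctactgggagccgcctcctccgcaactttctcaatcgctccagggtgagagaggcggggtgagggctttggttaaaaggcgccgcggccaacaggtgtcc
Gjb6, chr14:57133612-57133861, minus strand: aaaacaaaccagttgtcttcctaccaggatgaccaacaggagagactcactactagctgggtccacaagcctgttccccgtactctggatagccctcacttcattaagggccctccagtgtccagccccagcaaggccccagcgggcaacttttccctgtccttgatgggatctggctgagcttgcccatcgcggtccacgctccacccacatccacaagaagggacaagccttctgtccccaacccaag
Gja1, chr10:56377050-56377299, plus strand: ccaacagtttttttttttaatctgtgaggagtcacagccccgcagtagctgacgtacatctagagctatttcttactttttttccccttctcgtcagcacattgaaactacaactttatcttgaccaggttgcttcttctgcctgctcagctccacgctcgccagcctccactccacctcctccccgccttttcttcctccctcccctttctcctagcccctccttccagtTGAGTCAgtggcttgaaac
The Gjb2 window was rich in GC (69.2%, against a median of 52.4% over 32536 windows of the same length) and held 18 CpG dinucleotides. It had GC boxes whose first bases lie at -211 and -126 from the gene start, and an NF-kB consensus match at -134 that runs into the second GC box as a single stretch of capitals. The Gjb6 window had 56.8% GC and 5 CpG dinucleotides, and none of the 5 motifs was found in it. In the Gja1 window G and C were as frequent as A and T, with 6 CpG dinucleotides and an AP-1 match at -19. Of all windows, 32.97% held a GC box, 6.728% the AP-1 motif, 7.041% the STAT motif, 5.025% the NF-kB consensus and 12.313% the TATA box. These matches describe letters, not binding.

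Atp12a had a wide range of levels. Its deposited intensity was 25.5 at 10 weeks and 29.3 at 14 weeks in WT skin. In IL-6KO skin it was 464 and 1015, and in IL-17C+ involved skin 250 and 329. In IL-17C+ uninvolved skin it was 47.4 and 147. The IL-17C+KO pools read 227 and 631 from involved areas and 433 and 342 from uninvolved areas. Both WT pools thus lay below all 10 others, and the 10-week IL-17C+ uninvolved pool was the next lowest. The highest array was 39.8-fold above the lowest, a span set by WT at 10 weeks and IL-6KO at 14 weeks, the groups whose difference chose the gene; all 12 arrays read above their array median.

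On the log2 scale, the order of the Atp12a group levels began with WT at 4.77 ± 0.14 (SD, n = 2), followed by IL-17C+ uninvolved at 6.38 ± 1.15 and IL-17C+ involved at 8.16 ± 0.28. Above these came IL-17C+KO involved at 8.57 ± 1.04, IL-17C+KO uninvolved at 8.59 ± 0.24 and IL-6KO at 9.42 ± 0.80. Neighbours in this order overlapped only from IL-17C+ involved to IL-17C+KO involved and from there to IL-17C+KO uninvolved. IL-17C+ involved and uninvolved skin did not overlap. With 2 arrays per group, overlap in this order and in those of the connexins is a description and not a test. How many of all genes separate the same groups was not counted, so a lack of overlap has no background here.

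**Figure D1:**
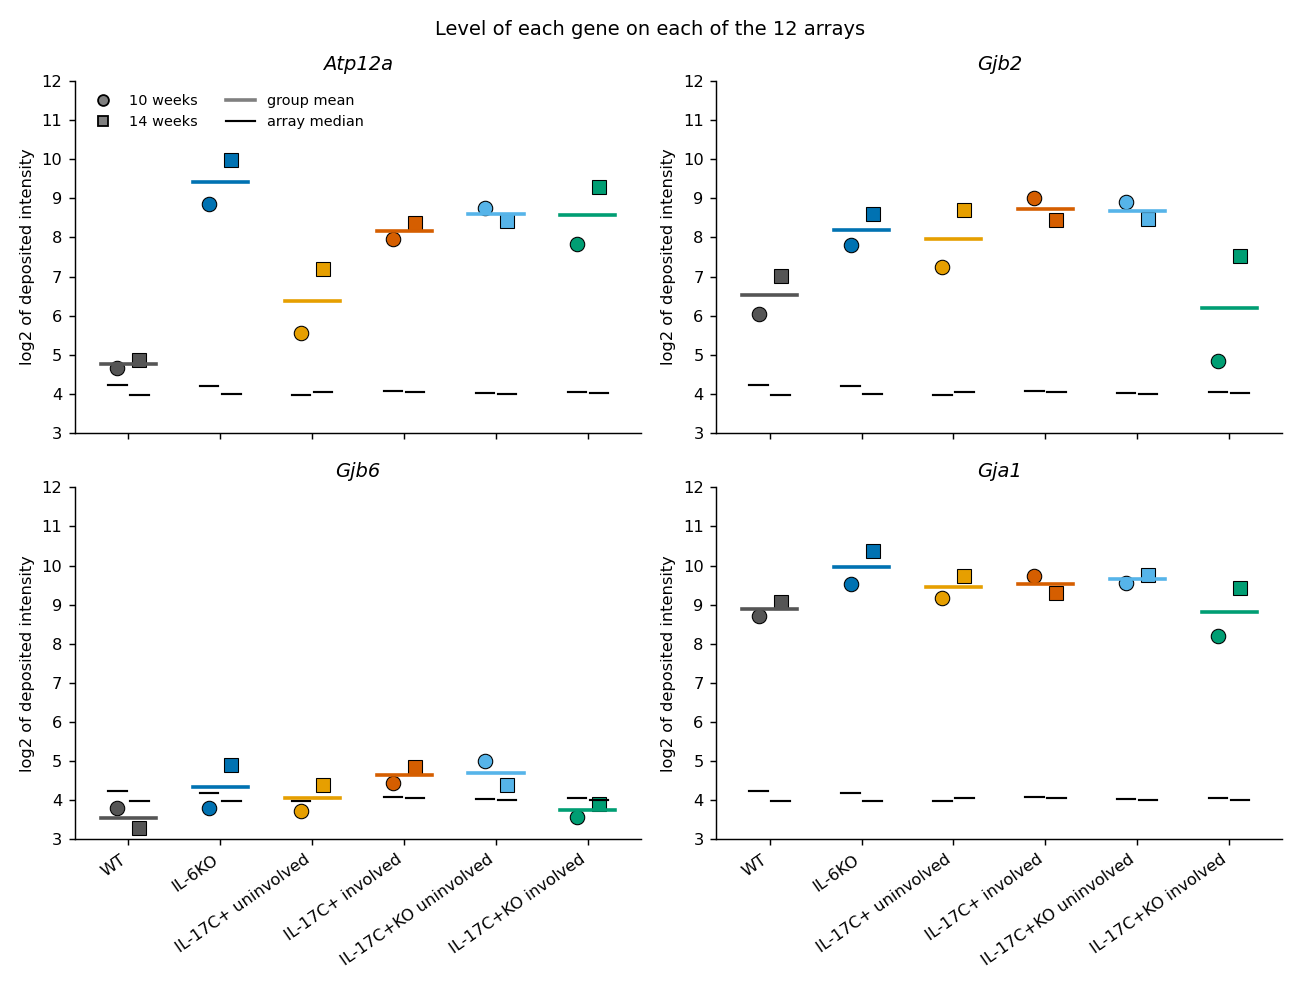
Log2 level of Atp12a, Gjb2, Gjb6 and Gja1 on each of the 12 arrays by group, with circles for 10 weeks, squares for 14 weeks, coloured lines for group means (2 arrays per group) and short black lines for the array medians. WT is lowest for Atp12a at 4.67 and 4.87, and the 10-week IL-17C+KO involved array is the lowest for Gjb2 at 4.85 and for Gja1 at 8.21.

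In IL-6KO minus WT, the contrast that put Atp12a on the list, its log2 difference was 4.65 (25.1-fold), with 4.19 at 10 weeks and 5.12 at 14 weeks. In IL-17C+ involved minus WT it was 3.39 (10.5-fold; 3.29 and 3.49 at the 2 ages), and in IL-17C+ uninvolved minus WT it was 1.61 (0.90 and 2.33). Against IL-6KO skin, IL-17C+KO involved skin stood at -0.86 (-1.03 and -0.69) and IL-17C+KO uninvolved skin at -0.84 (-0.10 and -1.57). The comparisons with WT share the WT arrays and those with IL-6KO share the IL-6KO arrays. Every pool of the groups other than WT therefore read above the WT pool of its age.

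Between the uninvolved skins, Atp12a rose: it was 4.61-fold higher in IL-17C+KO uninvolved than in IL-17C+ uninvolved skin, a log2 difference of 2.20 ± 0.41 (SE; limma, adjusted p = 0.0277), with 3.19 at 10 weeks and 1.22 at 14 weeks. It was the only member called in that comparison, where 0.712% of genes passed in either direction (158 of 22180). The call was lost without the 10-week IL-17C+ uninvolved array (1.67, adjusted p = 0.191 by limma) and without the 10-week IL-17C+KO uninvolved array (1.55, adjusted p = 0.377 by limma). It was also lost when the age term was dropped (2.20 ± 0.54, adjusted p = 0.138). The stressed keratinocyte markers moved with it: 7 of 7 lay above the array median on both IL-17C+KO uninvolved arrays, which averaged 10.12 on each, while 7 and 6 of 7 did on the IL-17C+ uninvolved arrays, which averaged 6.51 and 5.79. The 6 neutrophil markers averaged 8.33 and 8.67 on the former and 4.35 and 3.82 on the latter, with 6 of 6 above the median on each of the former and 5 and 3 on the latter. The 12 skeletal muscle markers went the other way, at 8.53 and 9.08 against 10.60 and 10.32. The part of these cells in the Atp12a difference was not tested.

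Between sites of IL-17C+ skin, Atp12a stood 3.44-fold higher in involved than in uninvolved skin (log2 difference 1.78 ± 0.41; 2.40 at 10 weeks and 1.16 at 14 weeks), but with an adjusted p of 0.0522 by limma it did not pass. It passed in 5 of 10 other settings, among them genotype and age as a block (adjusted p = 0.0225). With all IL-17C+KO arrays left out, an alternative chosen after seeing the data, the adjusted p was 0.0245, and leaving out single arrays moved it from 0.0316 to 0.385, with 7 of 12 such fits passing. In this comparison 0 of the 4 members passed, against 1.61% of genes, and all 4 estimates were above 0. Between sites of IL-17C+KO skin, the Atp12a difference was -0.02 ± 0.41 (adjusted p = 1 by limma), lower in involved skin by 0.93 at 10 weeks and higher by 0.89 at 14 weeks. The difference between these site effects was -1.80 ± 0.58 (adjusted p = 0.165 by limma). IL-17C+KO involved minus IL-17C+ involved skin, between which Il6 read 3.89 ± 1.06 and 3.72 ± 0.72, gave 0.40 ± 0.41 (adjusted p = 0.862 by limma), with -0.14 and 0.94 at the 2 ages.

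**Figure D2:**
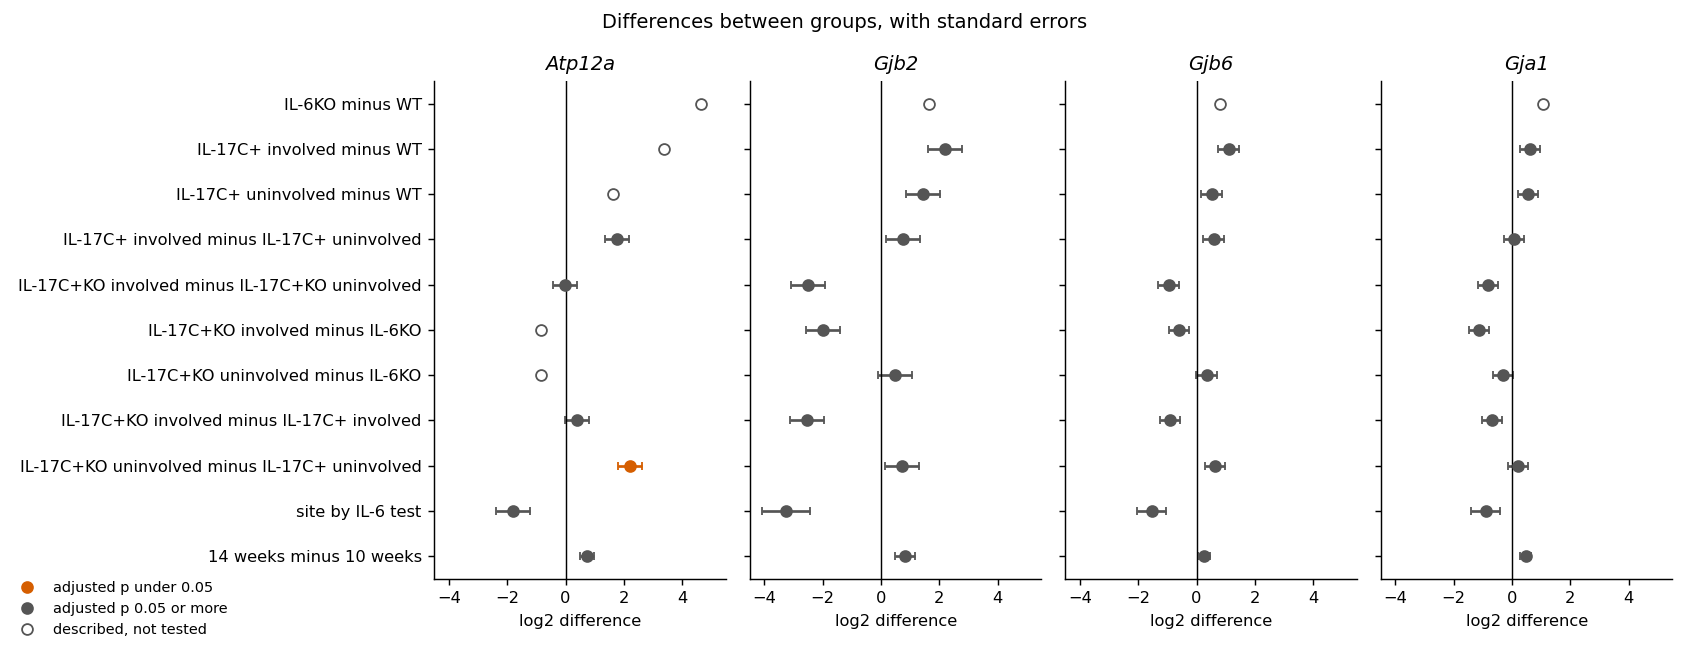
Log2 differences of the 4 genes in the comparisons of the design, with bars of 1 SE where a test was made and without bars where the value is a description. Atp12a in IL-17C+KO uninvolved minus IL-17C+ uninvolved, at 2.20 ± 0.41, is the only tested member past the threshold.

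The genes most like Atp12a over the 12 arrays were ranked by Pearson r among 10466 genes with a mean above the median of all genes. First was Ceacam19 (r = 0.96), a member of the CEA cell adhesion family, then Atp6v1c2 (r = 0.94), a C subunit of the vacuolar proton pump, and Ammecr1 (r = 0.94). Ehf (r = 0.94), an ETS transcription factor of epithelia, and Abhd12b (r = 0.93) followed. Ehf read 4.51 and 4.55 in WT skin and 4.48 and 4.96 in IL-17C+ uninvolved skin, and between 5.79 and 7.10 on the other 8 arrays. Thus Ehf set the 4 WT and IL-17C+ uninvolved arrays apart, whereas Atp12a on the 14-week IL-17C+ uninvolved array stood well above WT. By the same measure Gjb6 ranked 955th, Gja1 1313th and Gjb2 2015th for Atp12a. These correlations describe arrays that share groups and ages, and the arrays include the WT and IL-6KO pools whose difference chose Atp12a.

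Partners and relatives of the pump were taken from a list of the sodium and proton pump family, of which 14 of 18 genes were analysed here. The beta subunits Atp1b1 (8.45 to 9.78) and Atp1b3 (8.53 to 9.52), which assemble with pumps of this family, read above the array median on all 12 arrays. The gastric proton pump's catalytic subunit Atp4a did so on 3 arrays, and its beta subunit Atp4b (4.01 to 4.76) on all 12. In IL-17C+KO uninvolved minus IL-17C+ uninvolved skin, Atp12a was the only 1 of the 14 to pass in either direction, against 0.712% of all genes. The median difference of the list was 0.07 there, against -0.01 over all genes. In the 4 other comparisons free of WT and IL-6KO arrays, 0 of the 14 passed by limma, with 1 to 4 at an unadjusted p under 0.05. The share of all genes that passed in them ran from 0.505% to 2.58%, so a count of 0 in 14 is near the background. Fxyd4, a small regulator of the sodium pump, stood at 1.22 ± 0.35 between IL-17C+ involved and uninvolved skin (adjusted p = 0.131 by limma).

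Other genes that handle acid and bicarbonate did change. Of 28 measured among 31 listed, 2 rose and 1 fell in IL-17C+ involved minus WT, where 1.8% of genes passed, and the same 3 did so in IL-17C+ involved minus uninvolved skin. Car12, a membrane carbonic anhydrase, stood at 2.04 ± 0.29 (adjusted p = 0.00354 by limma) against WT and 1.73 ± 0.29 (adjusted p = 0.00989) against uninvolved skin. Slc16a3, a lactate and proton exporter, stood at 1.37 ± 0.29 (adjusted p = 0.0335) and 1.41 ± 0.29 (adjusted p = 0.0294). Car3, a carbonic anhydrase known from muscle and fat, fell by 1.82 on the log2 scale (SE 0.33, adjusted p = 0.0156) and by 1.87 (adjusted p = 0.0132). The 12 skeletal muscle markers averaged 7.98 in IL-17C+ involved skin, 10.46 in IL-17C+ uninvolved and 10.41 in WT skin, beside which the fall of Car3 stands; their part in it was not tested. Car12 was also the only gene of the list called in IL-17C+KO uninvolved minus IL-17C+ uninvolved skin (1.64 ± 0.29, adjusted p = 0.0195 by limma), where 0.712% of all genes passed. The same held in IL-6KO minus WT (1.49 ± 0.29, adjusted p = 0.0468 by limma), where 0.455% of all genes passed.

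The site effect of all 3 differed between the IL-17C+KO and IL-17C+ genotypes, a comparison in which 2.58% of genes passed. The difference of site effects was -2.22 ± 0.41 for Car12 (adjusted p = 0.012 by limma), -2.52 ± 0.41 for Slc16a3 (adjusted p = 0.00587) and 2.59 ± 0.47 for Car3 (adjusted p = 0.0104). In the same test 6 of 7 stressed keratinocyte and 6 of 6 neutrophil markers were called lower, and 11 of 12 skeletal muscle markers higher. The comparison rests on the IL-17C+KO arrays, which read against their site labels. The part of these cells in the values of Car12, Slc16a3 and Car3 was not tested. Of the vacuolar proton pump, 22 of 23 listed subunits were measured. Only Atp6v0e2 passed, in the difference of site effects (1.65 ± 0.36, adjusted p = 0.0297 by limma), where 2.58% of all genes passed. No subunit passed in the 10 other comparisons, with 0 to 5 at an unadjusted p under 0.05. The share of all genes that passed in those ran from 0% to 1.8%.

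Gjb2 varied most among the connexins, 18.0-fold from the lowest to the highest array. Its intensity was 66.5 and 130 in WT skin at 10 and 14 weeks, 223 and 387 in IL-6KO skin, and 519 and 350 in IL-17C+ involved skin. It was 152 and 415 in IL-17C+ uninvolved skin and 28.9 and 185 in IL-17C+KO involved skin, while the IL-17C+KO uninvolved pools read 478 and 356. The 10-week IL-17C+KO involved array was the lowest and differed from the 14-week array of its group by 2.68 on the log2 scale, the widest gap between ages in any group.

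The log2 group levels of Gjb2 ran from IL-17C+KO involved (6.19 ± 1.90, SD, n = 2) and WT (6.54 ± 0.68), which overlapped, to IL-17C+ uninvolved (7.97 ± 1.03) and IL-6KO (8.20 ± 0.56). IL-17C+KO uninvolved (8.69 ± 0.30) and IL-17C+ involved (8.73 ± 0.40) were highest. Among neighbours in this order only WT and IL-17C+ uninvolved skin did not overlap. Their nearest arrays read 7.02 and 7.25, and the difference between these groups did not pass (1.43 ± 0.58, adjusted p = 0.846 by limma).

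No Gjb2 comparison passed in the fit of group and age over all 12 arrays and all genes. Gjb2 stood 4.58-fold higher in IL-17C+ involved than in WT skin (2.20 ± 0.58, adjusted p = 0.0869; 2.96 at 10 weeks and 1.43 at 14 weeks). The estimate was the same without all IL-17C+KO arrays, where its SE was 0.42 and its adjusted p 0.016 by limma. The same call appeared without either IL-17C+KO involved array alone (adjusted p = 0.0196 without the 10-week and 0.0192 without the 14-week array). In this comparison 0 of the 3 connexins passed, against 1.8% of genes.

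Gjb2 stood lower in the skin labelled IL-17C+KO involved than in each of 3 groups it was compared with. The difference from IL-17C+ involved skin was -2.54 ± 0.58 (adjusted p = 0.0768 by limma), from IL-17C+KO uninvolved skin -2.49 ± 0.58 (adjusted p = 0.111) and from IL-6KO skin -2.01 ± 0.58 (adjusted p = 0.742). In these comparisons 0 of 4, 0 of 4 and 0 of 3 tested members passed, against 0.649%, 0.505% and 0.171% of genes. The size of each rested on the 10-week array: at 10 weeks the differences were -4.17, -4.05 and -2.95, and at 14 weeks -0.92, -0.94 and -1.06. Without the 14-week IL-17C+KO involved array they were -3.66 (adjusted p = 0.0063), -3.61 (adjusted p = 0.00808) and -3.12 (adjusted p = 0.0368 by limma). Without the 10-week array they were -1.42 (adjusted p = 0.855), -1.38 and -0.89 (adjusted p = 1 for both by limma). The difference of site effects for Gjb2 was -3.26 ± 0.82 (adjusted p = 0.06 by limma), and 0 of 4 members passed there against 2.58% of genes. It was -4.38 (adjusted p = 0.00393) without the 14-week and -2.14 (adjusted p = 0.295) without the 10-week IL-17C+KO involved array.

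Gja1 read high on all arrays and varied less, 4.52-fold. Its intensity was 420 and 541 in WT skin, 737 and 1335 in IL-6KO skin, and 847 and 635 in IL-17C+ involved skin. It was 576 and 850 in IL-17C+ uninvolved skin and 295 and 691 in IL-17C+KO involved skin, while the IL-17C+KO uninvolved pools read 755 and 865. As with Gjb2, the lowest array was IL-17C+KO involved at 10 weeks, while the highest was IL-6KO at 14 weeks.

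The log2 group levels of Gja1 ran from 8.82 ± 0.87 (SD, n = 2) in IL-17C+KO involved and 8.90 ± 0.26 in WT skin to IL-17C+ skin, at 9.45 ± 0.40 in uninvolved and 9.52 ± 0.29 in involved areas. Above them came IL-17C+KO uninvolved at 9.66 ± 0.14 and IL-6KO at 9.95 ± 0.61. Only WT and IL-17C+ uninvolved skin, as neighbours in this order, did not overlap. Their nearest arrays read 9.08 and 9.17, and the difference did not pass (0.55 ± 0.34, adjusted p = 0.893 by limma). Of the tested comparisons, the one farthest from 0 was IL-17C+KO involved minus IL-6KO, at -1.13 ± 0.34 (adjusted p = 0.874 by limma), and between IL-17C+ sites the difference was 0.07 ± 0.34 (adjusted p = 0.969 by limma).

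Gjb6 read near the array median and was below it on 6 of 12 arrays, so its values carry more background than those of the others. Its intensity was 13.8 and 9.83 in WT skin, 13.9 and 29.7 in IL-6KO skin, and 21.6 and 29.0 in IL-17C+ involved skin. It was 13.2 and 21.0 in IL-17C+ uninvolved skin and 11.9 and 15.0 in IL-17C+KO involved skin, while the IL-17C+KO uninvolved pools read 31.8 and 21.0. Both IL-17C+ involved and both IL-17C+KO uninvolved arrays lay above both WT arrays, and every neighbour in the order of group levels overlapped, from WT (3.54 ± 0.35, SD, n = 2) to IL-17C+KO uninvolved (4.69 ± 0.42). Against WT, Gjb6 stood at 1.10 ± 0.36 in IL-17C+ involved skin (adjusted p = 0.179 by limma). The difference of site effects was -1.54 ± 0.50 (adjusted p = 0.17 by limma).

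In IL-6KO minus WT, where 0.455% of genes passed, the connexin differences were 1.66 for Gjb2 (1.74 and 1.57 at the 2 ages), 1.06 for Gja1 (0.81 and 1.30) and 0.80 for Gjb6 (0.01 and 1.59), given without a test. In IL-17C+ uninvolved minus WT, 0 of 3 connexins passed against 0.0541% of genes; Gjb2 stood at 1.43 ± 0.58 (adjusted p = 0.846 by limma). In IL-17C+KO uninvolved minus IL-6KO, 0 of 3 passed against 0.397% of genes, with Gjb2 at 0.49 ± 0.58 (adjusted p = 0.93 by limma). Between the uninvolved skins of the 2 genotypes, the connexin estimates ran from 0.21 for Gja1 to 0.71 for Gjb2, beside the 2.20 of Atp12a.

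Over the 12 arrays, Pearson r between connexins was 0.89 for Gjb2 and Gja1 (Spearman rho 0.85), 0.77 for Gjb2 and Gjb6 (rho 0.85) and 0.67 for Gjb6 and Gja1 (rho 0.74). With Atp12a it was 0.48 for Gjb2, 0.57 for Gja1 and 0.62 for Gjb6 (rho 0.45, 0.61 and 0.63). Without the 2 arrays farthest in Gjb2, its r with Gja1 was 0.66, and without the 2 farthest in Atp12a, its r with Gjb2 was 0.24. The changes from 10 to 14 weeks over the 6 groups gave another order: r was 0.88 for Gjb2 and Gja1 but 0.28 for Gjb2 and Gjb6 and 0.31 for Gjb6 and Gja1, and with Atp12a it was 0.77 for Gjb2, 0.78 for Gjb6 and 0.65 for Gja1. Arrays share groups and ages, so these are descriptions, and the differences between them were not tested. Those with Atp12a include the WT and IL-6KO arrays whose difference chose it.

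Among all ranked genes, those most like Gjb2 were Lrrc15 (r = 0.96), a leucine-rich repeat membrane protein, and Bub1b and Aurkb (r = 0.92 each), kinases of mitosis. Gja1 ranked 9th for Gjb2 and Gjb6 122nd. Lrrc15 was, like Gjb2, lowest on the 10-week IL-17C+KO involved array, at 4.18. Those most like Gja1 were Lyg2 (r = 0.96), Pinlyp (r = 0.95) and Trim59 (r = 0.94), and Gjb2 ranked 29th. Those most like Gjb6 were Dusp5 (r = 0.90), a phosphatase of MAP kinases, Noct (r = 0.89) and Cdca2 (r = 0.88), and Gjb2 ranked 90th.

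Hair shaft and inner root sheath markers moved with Gjb2 and Gja1, and melanocyte markers were correlated with all 4 genes over the 12 arrays. Of 13 hair shaft and inner root sheath genes, keratins and trichohyalin, 12 were measured, and their mean log2 level was 4.72 on the 10-week IL-17C+KO involved array, where 7 of 12 lay above the array median, and 6.88 on the 14-week array. It was 6.41 and 6.81 in WT skin, with 11 and 12 of 12 above the median, and between 7.53 and 9.58 on the remaining 8 arrays. Over the 12 arrays r with this mean was 0.86 for Gjb2, 0.88 for Gja1, 0.55 for Gjb6 and 0.33 for Atp12a. Without the 2 arrays farthest in the markers it was 0.58, 0.67, 0.41 and 0.29. From 10 to 14 weeks Gja1 moved in the same direction as the markers in 6 of 6 groups, Gjb2 in 5, Atp12a in 4 and Gjb6 in 3. The 5 melanocyte markers had r = 0.88 with Gjb2, 0.78 with Gja1, 0.66 with Atp12a and 0.65 with Gjb6. These markers had r = 0.77, 0.52, 0.64 and 0.59, in that order, without the 2 arrays farthest in them. From 10 to 14 weeks the melanocyte markers moved in the same direction as Gja1 in 5 of 6 groups and Gjb2 in 4. They did so with Atp12a in 3 and with Gjb6 in 2. With 4 of 5 above the array median on every array, they averaged 4.89 and 5.54 in WT skin, 5.04 and 5.86 in IL-17C+KO involved skin, and between 5.20 and 6.37 on the other 8 arrays. Gjb2 also had r = -0.66 with the skeletal muscle, 0.62 with the stressed keratinocyte and 0.59 with the neutrophil markers. Without the 2 arrays farthest in each list these were -0.68, 0.54 and 0.57. The part of hair follicle, pigment or other cell content in the levels of these genes was not tested.

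**Figure D3:**
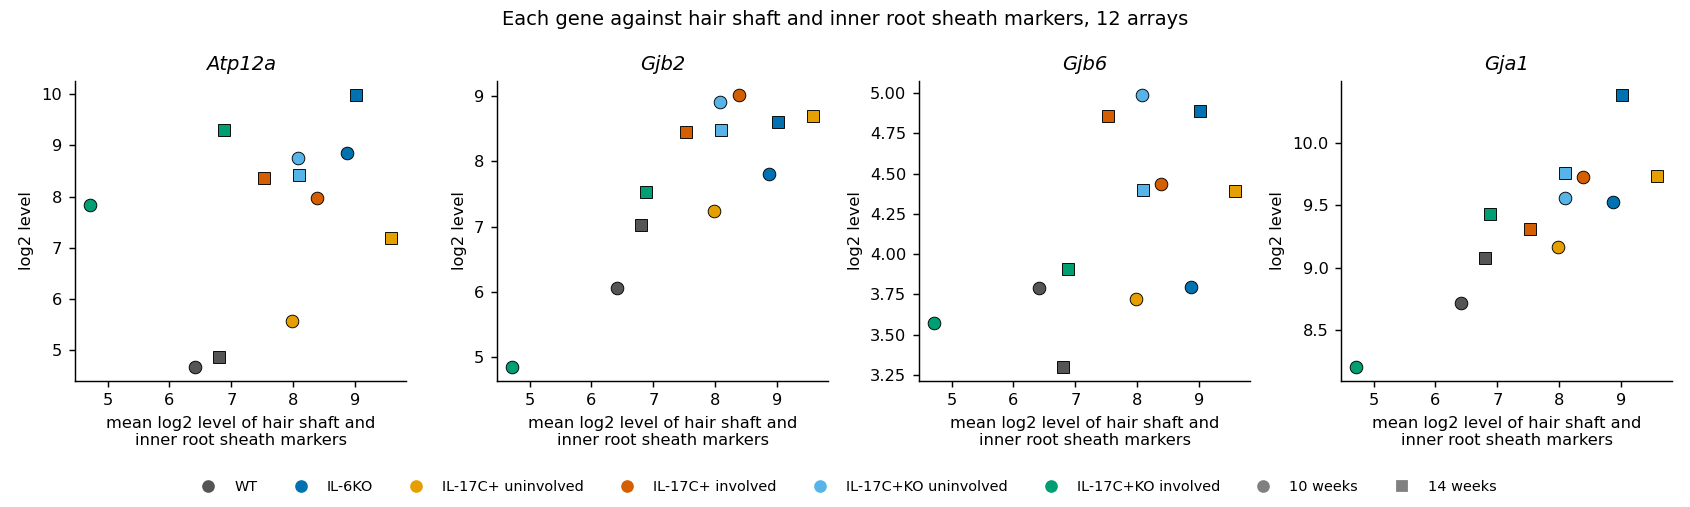
Log2 level of each of the 4 genes on each of the 12 arrays against the mean log2 level of 12 hair shaft and inner root sheath markers on the same array. Gjb2 (r = 0.86) and Gja1 (r = 0.88) are lowest on the array with the lowest marker mean, 4.72, whereas Atp12a (r = 0.33) is lowest on the 2 WT arrays.

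Other marker lists stood closer to Atp12a and Gjb6 than the hair shaft and inner root sheath markers did. Beside its r of 0.66 with the melanocyte markers, Atp12a had r = 0.80 with the 6 sebaceous gland and 0.64 with the stressed keratinocyte markers. It had r = -0.70 with the skeletal muscle markers and -0.85 with the 4 follicle stem cell markers. The last averaged 8.38 and 8.76 in WT and 8.65 and 8.45 in IL-17C+ uninvolved skin, and between 6.97 and 7.80 on the other 8 arrays. Gjb6 had r = 0.75 with the stressed keratinocyte and -0.81 with the skeletal muscle markers. Without the 2 arrays farthest in each list, r for Atp12a was 0.69 with sebaceous gland and 0.70 with stressed keratinocyte markers. It was -0.52 with skeletal muscle and -0.73 with follicle stem cell markers. For Gjb6 it was 0.71 with stressed keratinocyte and -0.72 with skeletal muscle markers. The arrays include the WT and IL-6KO pools whose difference chose Atp12a, so its r values only describe these arrays. For each list the arrays differ in several cell types at the same time, and the part of any of them was not tested.

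The wider gap junction family holds the other connexins and the pannexins. Of 23 listed genes 19 were analysed here. In IL-6KO minus WT no count is given, because Gjb2, Gjb6 and Gja1 were not tested there. In each of the other comparisons 0 of 19 passed by limma, with 0 to 4 at an unadjusted p under 0.05. The share of all genes that passed in them ran from 0% to 2.58%, so that a count of 0 in 19 is near the background. The list's median difference in them ran from -0.17 to 0.11. Besides Gjb2 and Gja1, the genes above the array median on all 12 arrays were Gja4, a connexin of blood vessels, Gjb5, a connexin of keratinocytes, Gjd3, Panx1, Panx2 and Panx3. Gjb5 stood at -0.64 ± 0.25 (adjusted p = 0.306 by limma) between IL-17C+ sites, where Gjb2 stood at 0.76 ± 0.58 (adjusted p = 0.673). Panx3 ranged from 4.11 to 6.46 and stood at 1.06 ± 0.49 in IL-6KO minus WT (adjusted p = 0.596 by limma). Among tight and adherens junction genes, 23 of 24 were measured. The only one called was Marveld2, the tricellulin gene, which fell in IL-17C+ involved minus WT (-1.07 ± 0.22, adjusted p = 0.027 by limma). In that comparison 1.8% of all genes passed. Elsewhere 0 of 23 passed, against 0% to 2.58% of all genes.

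Atp12a, Gjb2 and Gjb6 lie on mouse chromosome 14 in the order of the RefSeq annotation, and Gja1 lies on chromosome 10. Between Atp12a and Gjb6 there are 10 other genes with a row, among them Parp4, Pspc1, Zmym2 and the connexin gene Gja3, and Gjb2 and Gjb6 are separated by 1 RefSeq gene without a row. With 5 genes beyond each end, from the granzyme cluster on the Atp12a side to Il17d and its neighbours on the other, 20 neighbours were compared. In each of 10 comparisons, age included and the difference of site effects left out, 0 of 20 passed by limma, with 0 to 2 at an unadjusted p under 0.05, a count near the 0% to 1.8% of all genes that passed in them. Their differences ran from -0.75 to 0.87, beside 2.20 for Atp12a between the uninvolved skins.

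**Figure D4:**
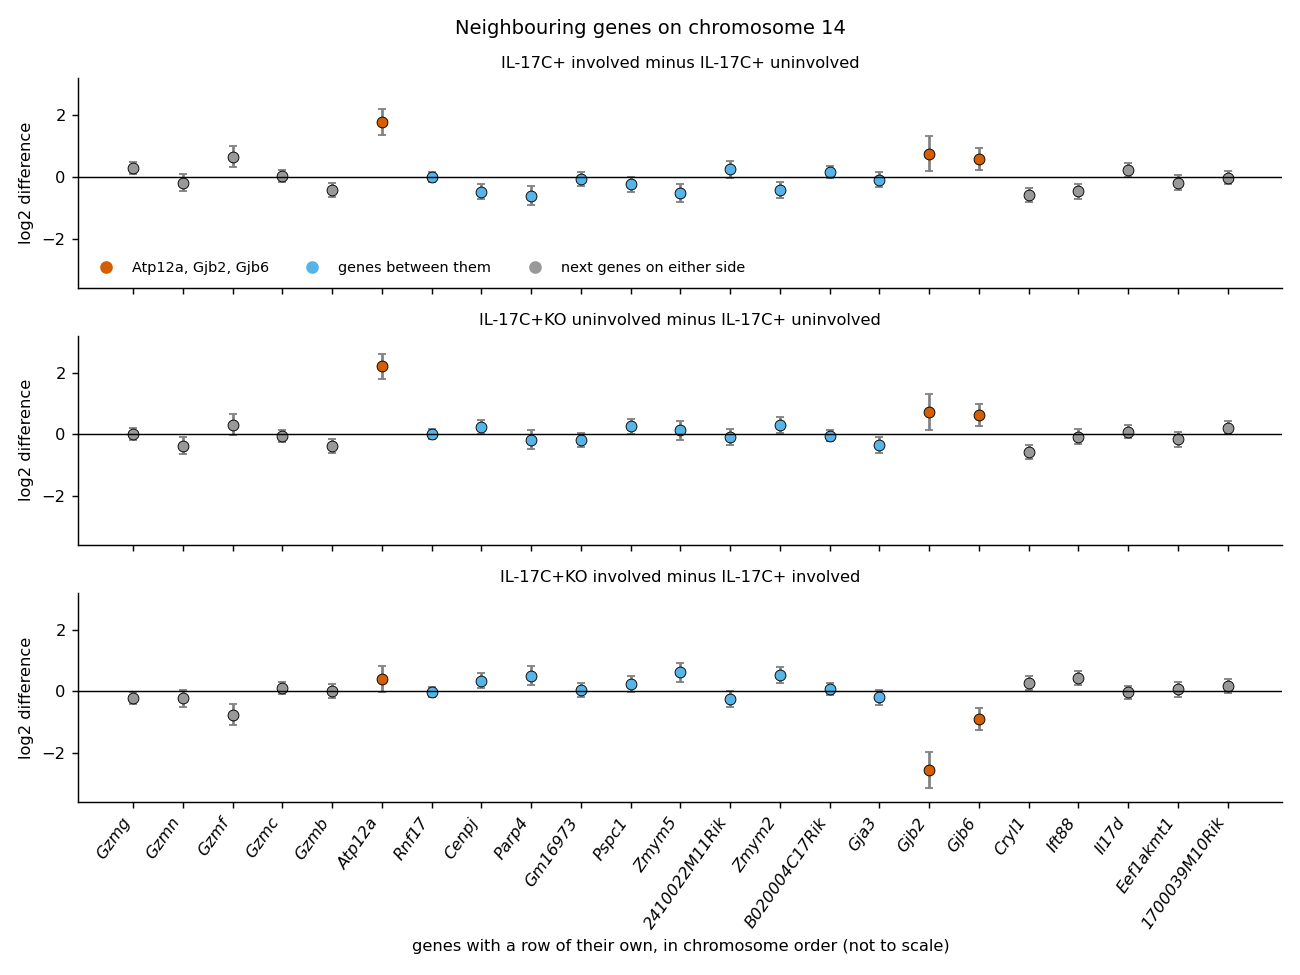
Log2 differences of Atp12a, Gjb2, Gjb6 and the 20 genes around them on chromosome 14, in the order of the RefSeq annotation, with bars of 1 SE, for 3 comparisons: between IL-17C+ sites, and between the IL-17C+KO and IL-17C+ genotypes in uninvolved and in involved skin. Differences of the neighbours in the 10 comparisons tested lie between -0.75 and 0.87.

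With age, all 4 genes had estimates above 0. The difference of 14 minus 10 weeks over all groups was 0.75 ± 0.24 for Atp12a, 0.82 ± 0.34 for Gjb2, 0.47 ± 0.20 for Gja1 and 0.24 ± 0.20 for Gjb6. The adjusted p by limma was 0.571, 0.581, 0.588 and 0.703, and of all 22180 genes 0 passed (0%), with 1856 at an unadjusted p under 0.05. Atp12a and Gja1 were higher at 14 weeks in 5 of 6 groups, and Gjb2 and Gjb6 in 4 of 6. The exception for Atp12a was IL-17C+KO uninvolved skin, at -0.34, and that for Gja1 was IL-17C+ involved skin, at -0.42. With 1 pool per group and age, a change that differs between groups could not be tested.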

How the data were processed

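Per the submitters' processing notes, the authors normalized the arrays with RMA in Affymetrix Expression Console; the sources used here give neither versions nor the array's genome build. The deposited table holds 41345 rows of normalized intensity on a linear scale, from 2.497 to 18384.7, and log2 was taken of the deposited values here. Of the rows, 23521 name 1 gene, 1814 several and 16010 none, by the platform annotation; the row with the highest mean stood for each of 22180 genes, and 1082 genes had more than 1 row. Array medians on the log2 scale ran from 3.97 to 4.23. RMA pools probes and aims to bring all arrays to the same distribution, so a shift shared by all genes would not be seen. The deposited values still differed in their medians, which were highest on the 10-week WT (4.23) and IL-6KO (4.19) arrays. Intensities of different genes are not compared as levels.

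One model per gene (group plus age, limma 3.58.1 in R 4.3.3, lmFit and eBayes with a trend) was fitted over all 12 arrays, with 5 residual degrees of freedom, with Benjamini-Hochberg adjustment over all 22180 genes and a threshold of 0.05. The script was tested on simulated data. Each group has 2 pools of different age, and the number of arrays limits the precision. Nothing says that pools beyond their mice were independent. No group has 2 pools of the same age, so p-values rest on pool spread mixed with age changes that differ between groups.

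The 4 genes, the gene and marker lists and the tests were chosen with earlier results of these data known. Named beyond the 4 were the 5 genes most like Atp12a, the 3 most like each connexin, chromosome neighbours, and list genes past the threshold or needed to describe a list; Fxyd4, Gjb5 and Panx3 were picked after their values were seen. Alternatives were the age term, a block, the trend, a filter on dim genes, quantile normalization, mean of rows, log2(value + 8), only the arrays compared, and leaving out each array; leaving out all IL-17C+KO or all IL-6KO arrays was chosen after seeing the data. RefSeq promoter windows and gene order come from GRCm38.p6. Proteins and the Atp12a promoter were not used here.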

Additional observations from a re-analysis of the deposited data

Results flagged for a closer look

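Gjb6 moved in opposite directions with site in the 2 overexpressing genotypes. Between involved and uninvolved skin its log2 difference was 0.71 at 10 weeks and 0.46 at 14 weeks in IL-17C+ mice, and -1.42 and -0.48 in IL-17C+KO mice, so that every pool pair of one genotype moved against every pair of the other. The difference of the site effects was -1.54 ± 0.50 (SE) with an adjusted p of 0.17 by limma and so did not pass, against 2.58% of genes that did. Gjb6 lay below the array median on 6 of 12 arrays. The stressed keratinocyte and neutrophil markers also had site effects of opposite sign in the 2 genotypes; their part in the Gjb6 values was not tested.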

How the results depend on the processing

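The 44 member results (4 genes in 11 comparisons) were recomputed under 892 combinations of result and setting. In 496 fits with a single array left out and 350 under other settings, direction and side of the threshold held, or for an untested value the move was under 1 SD of the age differences. With a single array left out, results that changed ranged as follows. Atp12a was 3.06 to 3.72 in IL-17C+ involved minus WT, 1.25 to 2.31 between IL-17C+ sites, -0.68 to 0.63 between IL-17C+KO sites, -1.29 to -0.42 in IL-17C+KO involved minus IL-6KO, -0.03 to 0.84 in IL-17C+KO involved minus IL-17C+ involved and 1.55 to 2.86 between the uninvolved skins. Gjb2 was 1.36 to 3.03 in IL-17C+ involved minus WT, -0.07 to 1.59 between IL-17C+ sites, -3.61 to -1.38 between IL-17C+KO sites, -3.12 to -0.89 in IL-17C+KO involved minus IL-6KO, -0.26 to 1.24 in IL-17C+KO uninvolved minus IL-6KO, -3.66 to -1.42 in IL-17C+KO involved minus IL-17C+ involved, -0.03 to 1.46 between the uninvolved skins and -4.38 to -2.14 for the difference of site effects. Gja1 between IL-17C+ sites was -0.46 to 0.60, and Gjb6 in IL-17C+KO uninvolved minus IL-6KO -0.16 to 0.86. Signs turned for Gjb2 (-0.069) and Gja1 (-0.46) between IL-17C+ sites without the 10-week involved array, and for Atp12a between IL-17C+KO sites without the 10-week involved (0.41) or uninvolved (0.63) array. They turned without the 10-week IL-17C+KO uninvolved array for Gjb2 against IL-6KO (-0.26) and IL-17C+ uninvolved skin (-0.031), and for Gjb6 against IL-6KO (-0.15), which also turned without the 10-week IL-6KO array (-0.16). Atp12a in IL-17C+KO involved minus IL-17C+ involved turned to -0.033 without the 14-week IL-17C+KO array. With log2(value + 8), Atp12a in IL-17C+ involved minus WT was 3.06. With quantile normalization again, Atp12a between IL-17C+KO sites was 0.0020, and between IL-17C+ sites it was 1.85 (adjusted p = 0.0459 by limma). With only genes above their array median on 2 or more arrays, which tests fewer genes, Atp12a between IL-17C+ sites stayed at 1.78 (adjusted p = 0.0405) and Gjb2 in the difference of site effects at -3.26 (adjusted p = 0.0462).

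With only the arrays compared, which leaves 1 residual degree of freedom for 2 groups, Gjb2 in IL-17C+ involved minus WT was 2.20 (adjusted p = 2.59e-07), Gjb6 there 1.10 (adjusted p = 0.0166), Atp12a between IL-17C+ sites 1.78 (adjusted p = 0.00983) and Gjb2 in IL-17C+KO involved minus IL-6KO -2.01 (adjusted p = 0.0106 by limma). Without all IL-17C+KO arrays, Gjb2 in IL-17C+ involved minus WT was 2.20 (adjusted p = 0.016) and Atp12a between IL-17C+ sites 1.78 (adjusted p = 0.0245). Same-numbered pools share an age. A block of genotype and age (consensus correlation 0.321) was fitted only for site effects and their difference. It gave 1.78 (adjusted p = 0.0225) for Atp12a between IL-17C+ sites and -3.26 (adjusted p = 0.0343) for Gjb2 in the difference. With no replicate block and no age term, Atp12a between the uninvolved skins was 2.20 (adjusted p = 0.138 by limma). The cause of these changes, where no construction is named, was not tested.

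With a single array left out, the lowest number of genes called was below each range given here, so these ranges understate how far the counts move. Under the other settings the number of genes called moved as follows. In IL-6KO minus WT 101 became 26 to 266, and in IL-17C+ uninvolved minus WT 12 became 2 to 127. In IL-17C+KO involved minus IL-6KO 38 became 2 to 130, and in the difference of site effects 573 became 503 to 1050. It was 399 (288 to 883) in IL-17C+ involved minus WT, 357 (301 to 833) and 112 (76 to 223) between the IL-17C+ and IL-17C+KO sites, 88 (66 to 563) in IL-17C+KO uninvolved minus IL-6KO, and 144 (100 to 436) and 158 (118 to 354) for IL-17C+KO minus IL-17C+ in involved and uninvolved skin. Signal limits Gjb6.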
